A study of Rattus norvegicus with 49 samples.

Results

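Nkx2-1, Pax8, Foxe1 and Hhex, the transcription factors whose joint expression marks the follicular cell of the thyroid (the thyrocyte), were followed in rat thyroid after exposure to 131I, the iodine radioisotope that the gland takes up. Members were chosen by name and not by any measured value, as all non-control probes whose RefSeq accession belongs to one of these 4 genes. That gave 5 probes of 30367 on the array, for 4 of 15154 genes with a symbol. All rats were male Sprague Dawley, and each of the 49 one-colour arrays held labelled total RNA from the thyroid of 1 rat. Of the 9 exposed groups, 6 were injected at 5 weeks of age (called young below), either with 50 kBq and killed 3, 6 or 9 months later, or with 0.5 kBq, 5 kBq or 500 kBq and killed 9 months later. The other exposed groups received 50 kBq at 17 weeks of age (called adult) and were killed 3, 6 or 9 months later. The 4 untreated groups were 4, 7, 10 and 13 months old, so that each exposed group was compared with untreated rats of its own age. Groups held 4 arrays, except for 3 arrays in the young 5 kBq group and in the untreated groups of 7 and 13 months.

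Nkx2-1 (also called Ttf1) is a homeodomain factor, Pax8 a paired-box factor, Foxe1 (Ttf2) a forkhead factor and Hhex a homeodomain repressor. In the embryo all of them are switched on in the endodermal cells that bud from the pharynx floor, and in the adult thyrocyte they stay on and sustain the genes of hormone synthesis. Nkx2-1 and Pax8 bind the regulatory regions of Tg, which encodes thyroglobulin, the protein on which the hormone is made. None of the factors belongs to the thyrocyte alone: Nkx2-1 is also found in lung and C cells, Pax8 in kidney, Foxe1 in oral and oesophageal epithelium, and Hhex in liver, endothelium and blood cells.

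The upstream regions of 3 of the factors are shown because their transcripts varied together between rats, as described further on. The RefSeq table used here, of rat build GRCr8, holds a window for Nkx2-1, Pax8 and Hhex. Each is printed 5′ to 3′ on the strand of the gene, as the 250 bases that end just before the transcript start, with the letters CCAAT (or ATTGG, the same motif on the opposite strand) and CTCAAG in capitals. The Nkx2-1 window is chr6:79734868-79735117 on the minus strand, that of Pax8 is chr3:27640632-27640881 on the minus strand, and that of Hhex is chr1:244602695-244602944 on the plus strand.
Nkx2-1: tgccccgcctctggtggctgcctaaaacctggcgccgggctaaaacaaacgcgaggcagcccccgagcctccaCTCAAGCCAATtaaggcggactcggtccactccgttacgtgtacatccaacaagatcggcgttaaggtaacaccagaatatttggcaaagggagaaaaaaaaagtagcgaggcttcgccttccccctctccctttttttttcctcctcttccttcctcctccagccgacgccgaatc
Pax8: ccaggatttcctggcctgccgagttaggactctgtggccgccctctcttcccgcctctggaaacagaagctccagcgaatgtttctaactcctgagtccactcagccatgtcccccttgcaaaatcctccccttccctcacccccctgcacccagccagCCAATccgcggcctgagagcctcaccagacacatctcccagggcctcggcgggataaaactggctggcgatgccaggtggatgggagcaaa
Hhex: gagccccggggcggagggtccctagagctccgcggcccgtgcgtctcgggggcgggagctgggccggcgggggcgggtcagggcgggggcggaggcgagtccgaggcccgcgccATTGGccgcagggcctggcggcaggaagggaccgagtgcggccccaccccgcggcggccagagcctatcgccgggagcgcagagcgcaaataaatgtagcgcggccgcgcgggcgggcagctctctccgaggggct

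Short motifs were searched on both strands. CCAAT, the box bound by NF-Y, was in all 3 windows, 171 bases before the start of Nkx2-1, 91 before that of Pax8 and 136 before that of Hhex, and in 34.02% of all 33469 windows of this length. CTCAAG, the core of the sites that Nkx2-1 itself binds, was in the Nkx2-1 window only among the 3, directly before the CCAAT and without overlap, and in 13.35% of all windows. GGGCGG, the GC box, was in the Pax8 window and 6 times in that of Hhex, and in 30.47% of all windows. The letters TGACGTCA (1.587% of all windows), TAAACA (12.14%) and TATAAA (12.93%) were in none of the 3. GC content was 55.2% for Nkx2-1, 60.8% for Pax8 and 78.4% for Hhex, against a median of 51.2% over all windows.

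Levels are given as log2 of the background-subtracted signal minus the 75th percentile (P75) of the same array, so that 0 is the level of the probe at P75. On a given array 69.2% to 82.5% of the spots were well above background, apart from one with 43.1%. Of 14 thyrocyte function genes, 7 were well above background on all 49 arrays, Tg among them. Arrays that went against the rest were looked for in that list, and 3 stood apart. On replicate 3 of young 50 kBq at 3 months and on replicate 2 of the untreated rats of 7 months the list lay on average at -5.12 and -5.94 log2 units from its median over arrays, while the other 46 arrays lay between -1.10 and 0.98. On these same arrays the C cell list lay at -5.71 and -6.21, the parathyroid list at -8.31 and -8.12 and the skeletal muscle list at 1.55 and 1.26, so the label thyroid was not borne out by the markers. The third was replicate 2 of young 50 kBq at 3 months, with the 43.1% of spots and a P75 of 61.0 against 783 or more elsewhere. Results are therefore given over all samples and without these 3 arrays.

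Arrays 1 and 2 of the untreated rats of 13 months, and arrays 1 and 2 of adult 50 kBq at 6 months, differed by less than the scanner's own error allows for repeats. The labels give the arrays of a pair as separate replicates, so whether they are repeats of 1 rat is not known. Foxe1 read 1.99 and 2.54 on the arrays of the adult pair. Each pair was averaged and counted as 1 sample, which left 47 samples, and 44 without the 3 arrays.

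On the 46 remaining arrays all factors were well above background. Nkx2-1 had a probe printed in 10 spots, which stands for the gene, and a second, dimmer probe 4.37 log2 units below it (median over 44 samples), and the levels of both correlated at r = 0.98. Over the 44 samples Nkx2-1 ranged from 0.29 to 3.31 with a median of 2.20, Pax8 from -0.09 to 3.75 with a median of 1.78, Foxe1 from 0.77 to 4.07 with a median of 2.32, and Hhex from -0.09 to 3.79 with a median of 2.09. The spread between rats of one group, as a pooled SD, was 0.51 for Foxe1, 0.64 for Nkx2-1, 0.72 for Pax8 and 0.80 for Hhex.

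**Figure D1:**
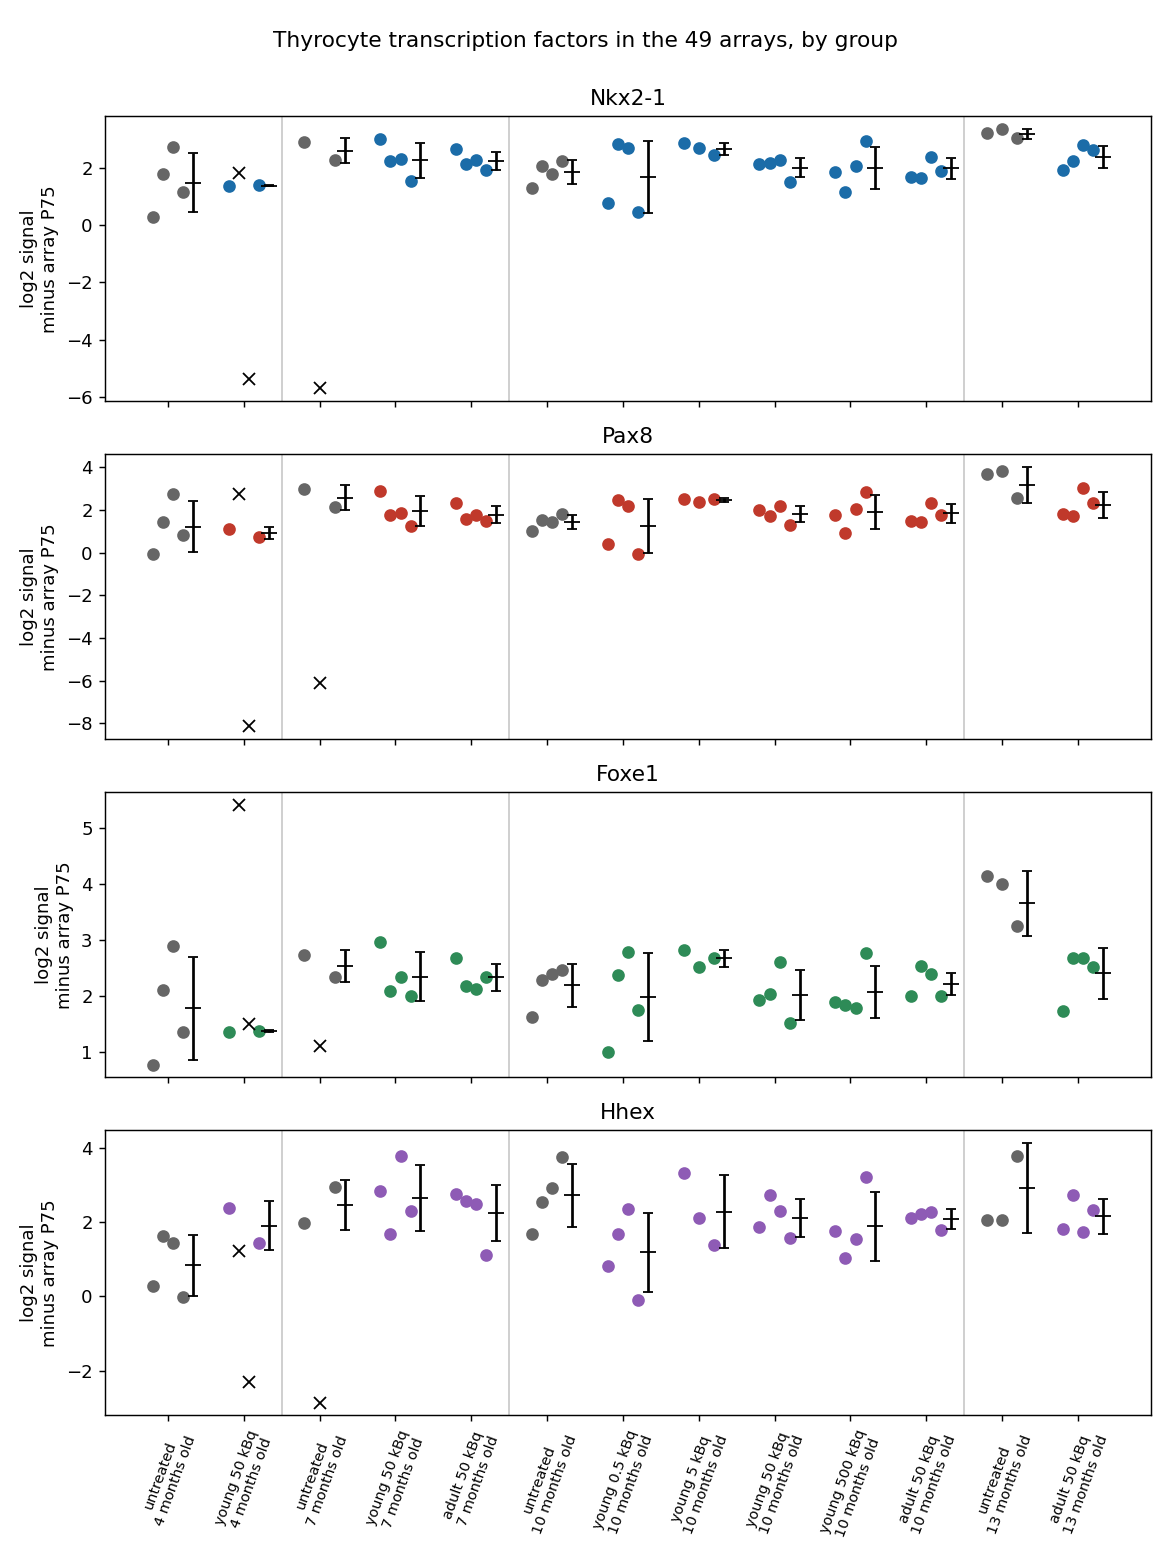
Level of each factor in the 49 arrays (log2 signal minus the array's P75, vertical axis) by group, ordered by age. Circles are arrays (grey, untreated), crosses are the 3 arrays that stand apart, and the black bar gives mean ± SD of the samples without them. The untreated rats of 13 months have the highest mean of all groups for each factor, and 2 crosses lie far below the circles for Nkx2-1, Pax8 and Hhex but not for Foxe1.

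Group means over the 44 samples ran in nearly the same order for Nkx2-1, Pax8 and Foxe1. For each of these the untreated rats of 13 months were highest and young 50 kBq at 3 months lowest, with untreated 4 months next to lowest. Means of Nkx2-1 went from 3.19 ± 0.17 (SD, n = 2) in the untreated rats of 13 months to 1.39 ± 0.02 (SD, n = 2) in young 50 kBq at 3 months. For Pax8 they went from 3.15 ± 0.85 to 0.92 ± 0.28, and for Foxe1 from 3.66 ± 0.58 to 1.37 ± 0.02, in the same groups. Hhex was also highest in the untreated rats of 13 months (2.92 ± 1.21, SD, n = 2) but lowest in those of 4 months (0.84 ± 0.82, SD, n = 4). Of the 12 steps between neighbours in the order of the 13 groups, none exceeded the pooled SD for Nkx2-1, Pax8 or Hhex. Foxe1 had 1 such step, the gap of 0.99 between the untreated rats of 13 months and the young 5 kBq group.

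The factors parted ways on the 2 arrays that lacked thyrocyte transcripts. On replicate 3 of young 50 kBq at 3 months Nkx2-1 was at -5.37, Pax8 at -8.14 and Hhex at -2.30, whereas Foxe1 was at 1.498. On replicate 2 of the untreated rats of 7 months Nkx2-1 was at -5.71, Pax8 at -6.12 and Hhex at -2.85, and Foxe1 at 1.10. The first 3 factors thus lay below every one of the 44 other samples on both arrays, and Foxe1 lay inside their range on both.

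Against the median of the 44 samples, Nkx2-1 was 190-fold and 241-fold lower on these arrays. Pax8 was 239-fold lower on the untreated array. On the exposed one it read 972-fold lower but was not well above background, so the size of that difference is uncertain. Hhex was 21.0-fold and 30.8-fold lower, and Foxe1 1.76-fold and 2.32-fold lower. Foxe1 rests on a single probe, and the squamous epithelium list was at 0.60 and -0.24 on these arrays. What the Foxe1 probe detected there was not tested. Of 13202 genes ranked by this difference as measured, those not well above background included, 17 and 31 lay further below than Nkx2-1, 165 and 205 than Hhex, and 2305 and 2146 than Foxe1, and 32 lay further below than Pax8 on the untreated array. Thyroglobulin (Tg) was 129-fold and 229-fold lower on the same arrays, still well above background. The C cell list (-5.71 and -6.21) and the parathyroid list (-8.31 and -8.12) were low on these arrays as well. The tissue was measured in bulk, and what lowered the thyrocyte transcripts was not tested. These arrays were singled out by their values, so their differences were not tested here. The search for far samples near the end of the text did include the exposed one. On the third array, with the low P75, Nkx2-1 was at 1.84, Pax8 at 2.75, Hhex at 1.21 and Foxe1 at 5.42, the highest Foxe1 value of all arrays.

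**Figure D2:**
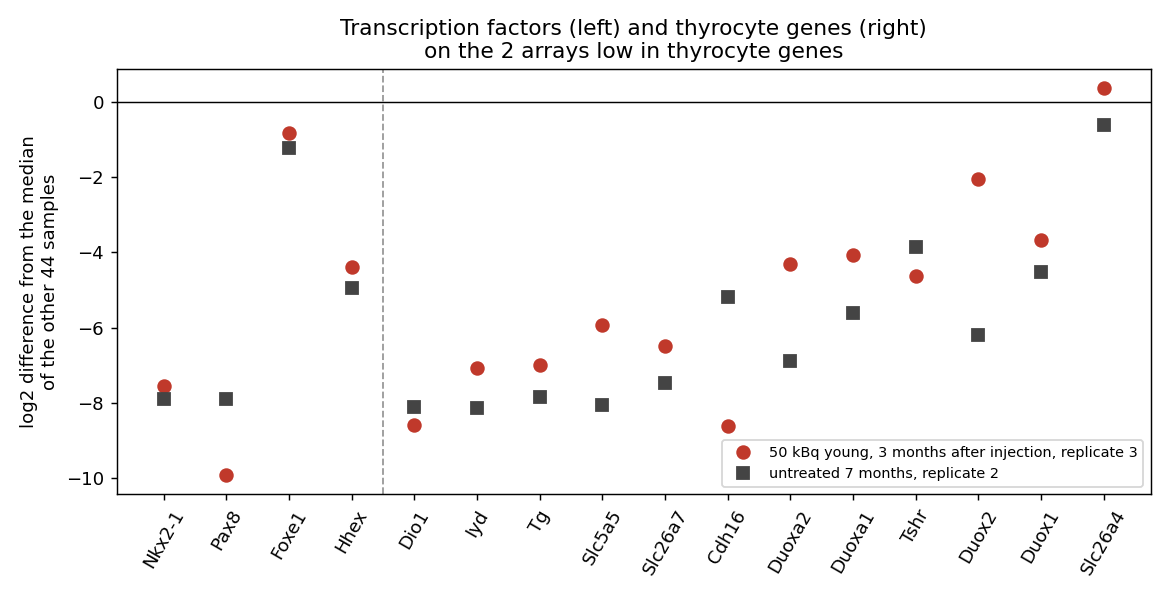
Difference of each factor (left of the dashed line) and of the thyrocyte function genes named in the text (right) from its median over the other 44 samples, in log2 units, on the 2 arrays low in thyrocyte genes (circles and squares). Nkx2-1 and Pax8 lie between -7.57 and -9.93, the last being Pax8 on the array where it was not well above background, Hhex near the middle and Foxe1 at -0.82 and -1.21.

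The untreated groups show how the factors stand at 4 ages without exposure. At 4 months the single rats had Foxe1 at 0.77, 2.11, 2.90 and 1.35, and at 13 months the arrays read 4.14, 4.00 and 3.25. All samples of 13 months were above all of 4 months for Foxe1, a fold change of 1.88 ± 0.43 (log2, SE), or 3.68-fold (95% interval 2.04 to 6.62), over the 44 samples. Nkx2-1 read 0.29, 1.79, 2.73 and 1.15 at 4 months and 3.25, 3.37 and 3.07 at 13 months, with no overlap. The Nkx2-1 difference was 1.70 ± 0.54.

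For Pax8 the arrays read -0.09, 1.41, 2.72 and 0.80 at 4 months and 3.68, 3.82 and 2.55 at 13 months, with overlap, and the difference was 1.94 ± 0.61. Hhex read 0.29, 1.64, 1.43 and -0.01 at 4 months and 2.07, 2.06 and 3.77 at 13 months, without overlap, and differed by 2.08 ± 0.68. All 4 factors were thus higher at 13 than at 4 months by 1.70 to 2.08 log2 units. The size depended on single samples for Hhex, which differed by 1.23 without replicate 3 of 13 months and by 2.93 without the averaged pair of that age. How many of all probes lacked overlap was not counted, here or in the comparisons below.

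Calls required a limma p below 0.01 after Benjamini-Hochberg adjustment over all probes, together with more than a 1.5-fold difference. Over all 47 samples no factor was called between 13 and 4 months (adjusted p = 0.079 for Foxe1, 0.20 for Hhex, 0.46 for Nkx2-1 and 0.49 for Pax8), where 4 of 25052 probes were called, or 0.016%. Without the 3 arrays Foxe1 was called (adjusted p = 0.0031), and Pax8, Nkx2-1 and Hhex were not (0.019, 0.020 and 0.022), among 2573 called of 24915 probes, or 10.3%. The Foxe1 call was lost without replicate 1 or 4 of the 4-month rats (adjusted p = 0.017 and 0.013) or without the averaged pair of 13 months (0.081), and the difference then lay between 1.47 and 1.74. Without replicate 3 of the 4-month rats Nkx2-1 (adjusted p = 0.0040) and Pax8 (0.0030) were called as well, among 16.8% of probes.

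With scan date as a block the differences without the 3 arrays were 1.98 for Foxe1, 1.82 for Nkx2-1, 2.09 for Pax8 and 2.22 for Hhex, and Pax8 was then called too (adjusted p = 0.0083). The averaged arrays of 13 months were scanned on different dates, and their mean was counted in equal parts on both. Placed wholly on the first date, Nkx2-1 was called in addition (adjusted p = 0.0089), and placed on the second, Foxe1 alone was called (Pax8, 0.012). Within the first of the 3 scan dates (2 arrays of each age, one of those of 13 months belonging to the averaged pair) Foxe1 differed by 2.26, Nkx2-1 by 2.12, Pax8 by 2.45 and Hhex by 1.95. Within the second (1 array of 13 months, the other of that pair, and 2 of 4 months) the values were 1.88, 1.43, 2.06 and 1.35 in the same order. Markers of other tissue and the array's own brightness moved with age as well. The muscle list, with 6 of its 7 genes on the array, lay at -4.77, -4.78 and -2.41 in the 13-month rats and between -1.30 and 0.36 at 4 months, and P75 was 1333 to 1441 against 1738 to 3234. The squamous epithelium list, with 6 of 7 genes on the array, lay at 6.92, -0.33, 6.92 and 5.60 in the 4-month rats and between -0.54 and -0.02 at 13 months. The C cell list (7 of 7 genes) was at -2.73, -0.25, -0.55 and -1.64 at 4 months and at 0.70, 0.70 and 2.63 at 13 months, without overlap. The parathyroid list (3 of 3 genes) ran from -1.29 to 1.58 and from 1.24 to 1.95 at these ages, and the cartilage list (5 of 5 genes) from -0.39 to 2.70, above 1 in 3 of the 4 rats, and from -0.21 to 0.30. Their part in the higher level of the factors was not tested.

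Between 4 and the other ages the factors differed less evenly. Hhex at 10 months read 1.69, 2.53, 2.91 and 3.74, all above the 4 rats of 4 months, with a difference of 1.88 ± 0.55 (log2, SE) that was not called (limma, adjusted p = 0.28 without the 3 arrays). For Nkx2-1, Pax8 and Foxe1 the difference between 10 and 4 months was 0.37 ± 0.44, 0.23 ± 0.50 and 0.41 ± 0.35. At 7 months the direction depended on the untreated array that lacked thyrocyte transcripts. Nkx2-1 differed from 4 months by -1.65 with that array and 1.12 without, and Pax8 by -1.55 with it and 1.35 without. Hhex turned as well, from -0.15 with it to 1.62 without. No factor was called at 7 or 10 months in either fit. The background was 1 probe (0.00399%) at 7 months and 0 at 10 months (0%) over all samples, where 1830 and 879 probes had an unadjusted p below 0.05, and 7 (0.0281%) and 3 (0.012%) without the 3 arrays.

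The activity series asks whether injected 131I left the factors changed 9 months later, in rats 10 months old. None of the factors was called at any activity, over all samples or without the 3 arrays. The untreated rats had Nkx2-1 at 1.31, 2.06, 1.81 and 2.26. After 0.5 kBq the Nkx2-1 values were 0.77, 2.83, 2.72 and 0.48, after 5 kBq 2.89, 2.70 and 2.46, after 50 kBq 2.13, 2.17, 2.28 and 1.51, and after 500 kBq 1.88, 1.16, 2.06 and 2.96. Only the 5 kBq rats all lay above all untreated rats, and the 0.5 kBq rats split into a higher and a lower pair. P75 did not overlap between the 5 kBq and the untreated rats either, at 3629 to 3653 after 5 kBq and 1842 to 2802 in untreated rats. The muscle list was at -0.84, -1.01 and 0.11 after 5 kBq and from -0.03 to 0.50 untreated, and the adipocyte list, with 5 of 6 genes on the array, at 0.64, -1.21 and -0.50 against 0.14 to 0.82. Their part in the level of the factors was not tested.

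Pax8 followed the same pattern. Untreated rats read 1.03, 1.503, 1.42 and 1.81, those given 0.5 kBq 0.38, 2.48, 2.18 and -0.06, those given 5 kBq 2.52, 2.36 and 2.48, those given 50 kBq 2.00, 1.69, 2.19 and 1.30, and those given 500 kBq 1.75, 0.90, 2.04 and 2.83. Again the 5 kBq rats alone did not overlap with the untreated ones. The share of all probes without overlap in this comparison was not counted. The factors also varied together between rats, as described further on.

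Foxe1 was at 1.62, 2.29, 2.39 and 2.46 in untreated rats and at 2.82, 2.52 and 2.68 after 5 kBq, likewise without overlap. It was at 0.99, 2.38, 2.78 and 1.76 after 0.5 kBq, at 1.92, 2.03, 2.60 and 1.52 after 50 kBq and at 1.897, 1.83, 1.78 and 2.77 after 500 kBq. Hhex lay on average below the untreated rats at every activity, with overlap at each. Against 1.69, 2.53, 2.91 and 3.74 in untreated rats it read 0.83, 1.68, 2.34 and -0.09 after 0.5 kBq and 1.77, 1.05, 1.54 and 3.21 after 500 kBq. After 5 kBq it read 3.33, 2.11 and 1.39, and after 50 kBq 1.86, 2.73, 2.30 and 1.58.

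Fitted differences from the untreated rats, without the 3 arrays, were largest at 5 kBq for 3 of the factors. They were 0.82 ± 0.48 (log2, SE) for Nkx2-1, 1.02 ± 0.54 for Pax8 and 0.49 ± 0.38 for Foxe1, with limma adjusted p = 0.75, 0.75 and 0.77. Within the first scan date and within the last, each with 1 array of 5 kBq, they were 0.82 and 0.65 for Nkx2-1, 0.92 and 1.07 for Pax8, and 0.40 and 0.29 for Foxe1. For Hhex the 0.5 kBq group gave the lowest value, -1.53 ± 0.55, with an unadjusted p of 0.0092 and an adjusted p of 1.00, and -1.04 and -3.004 within the same dates. At 50 and 500 kBq the difference was 0.16 ± 0.44 and 0.15 ± 0.44 for Nkx2-1, 0.36 ± 0.50 and 0.44 ± 0.50 for Pax8, and -0.17 ± 0.35 and -0.12 ± 0.35 for Foxe1. The 95% intervals at 50 and 500 kBq included a 2-fold higher level of Nkx2-1 and Pax8 as well as no difference.

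In this series 3 probes were called at 5 kBq and 3 at 50 kBq, or 0.012% each in both fits, and 0 (0%) at 0.5 and 500 kBq, where 224 and 386 of 25052 probes had an unadjusted p below 0.05. The slope on log10 of activity over the 15 exposed rats was 0.04 ± 0.17 log2 units per 10-fold for Nkx2-1, 0.14 ± 0.18 for Pax8, -0.03 ± 0.12 for Foxe1 and 0.21 ± 0.19 for Hhex (limma adjusted p = 1.00 for each). No probe of 23122 had a called slope (0%), and 599 had an unadjusted p below 0.05.

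The remaining exposed groups all received 50 kBq. In young rats at 3 months only 2 of 4 arrays were left once those that stand apart were set aside, with Nkx2-1 at 1.37 and 1.40 and Hhex at 2.38 and 1.43. Their differences from the untreated rats of 4 months were -0.10 ± 0.54 (log2, SE) for Nkx2-1, -0.29 ± 0.61 for Pax8, -0.42 ± 0.43 for Foxe1 and 1.07 ± 0.68 for Hhex. Over all samples they were -1.68, -2.10, 0.63 and -0.16, so the sign turned for Foxe1 and Hhex.

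In rats of 7 months the comparison again turned on the one untreated array without thyrocyte transcripts. Young rats at 6 months had Nkx2-1 at 3.02, 2.24, 2.31 and 1.54, and adult rats at 3 months had it at 2.68, 2.13, 2.28 and 1.95, against 2.92, -5.71 and 2.30 untreated. Nkx2-1 differed by 2.44 and 2.42 with that array and by -0.33 and -0.35 without it. Pax8 went from 2.27 and 2.11 to -0.62 and -0.78. Without it Foxe1 differed by -0.19 ± 0.43 and -0.20 ± 0.43, and Hhex by 0.19 ± 0.68 and -0.23 ± 0.68. All values of the factors overlapped with the untreated ones in both groups.

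Adult rats at 6 months had differences of 0.13 ± 0.48 for Nkx2-1, 0.41 ± 0.54 for Pax8, 0.03 ± 0.38 for Foxe1 and -0.64 ± 0.60 for Hhex, all with overlap. Adult rats at 9 months, 13 months old, had Foxe1 at 1.73, 2.68, 2.68 and 2.52, all below the untreated arrays of that age at 4.14, 4.00 and 3.25. The Foxe1 difference was -1.26 ± 0.43 without the 3 arrays, 0.42-fold (95% interval 0.23 to 0.75), and was not called (limma, adjusted p = 0.056, and 0.38 over all samples). Within the first scan date, the one that held arrays of both groups, Foxe1 differed by -1.49. P75 was 2426 to 3580 in the exposed rats and 1333 to 1441 in the untreated ones, and the muscle list was at -0.08, 0.13, -9.83 and 0.26 against -4.77, -4.78 and -2.41. Their part in the Foxe1 difference was not tested. Nkx2-1 was also below in every sample, at 1.92, 2.23, 2.81 and 2.62, with a difference of -0.79 ± 0.54. Pax8 differed by -0.93 ± 0.61 and Hhex by -0.76 ± 0.68, with overlap. The untreated rats of 13 months here are the same samples as in the age comparison above.

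Over all samples 0 probes (0%) were called in each of these 5 comparisons. The counts at an unadjusted p below 0.05 were 9211 in young rats at 3 months and 1574 at 6 months, and 1102, 136 and 3746 in adult rats at 3, 6 and 9 months. Without the 3 arrays 0 (0%) were called in young rats at 3 months, 6 (0.0241%) in young rats at 6 months, 8 (0.0321%) in adult rats at 3 months, 0 (0%) in adult rats at 6 months and 631 (2.53%) in adult rats at 9 months. No factor was among them.

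**Figure D3:**
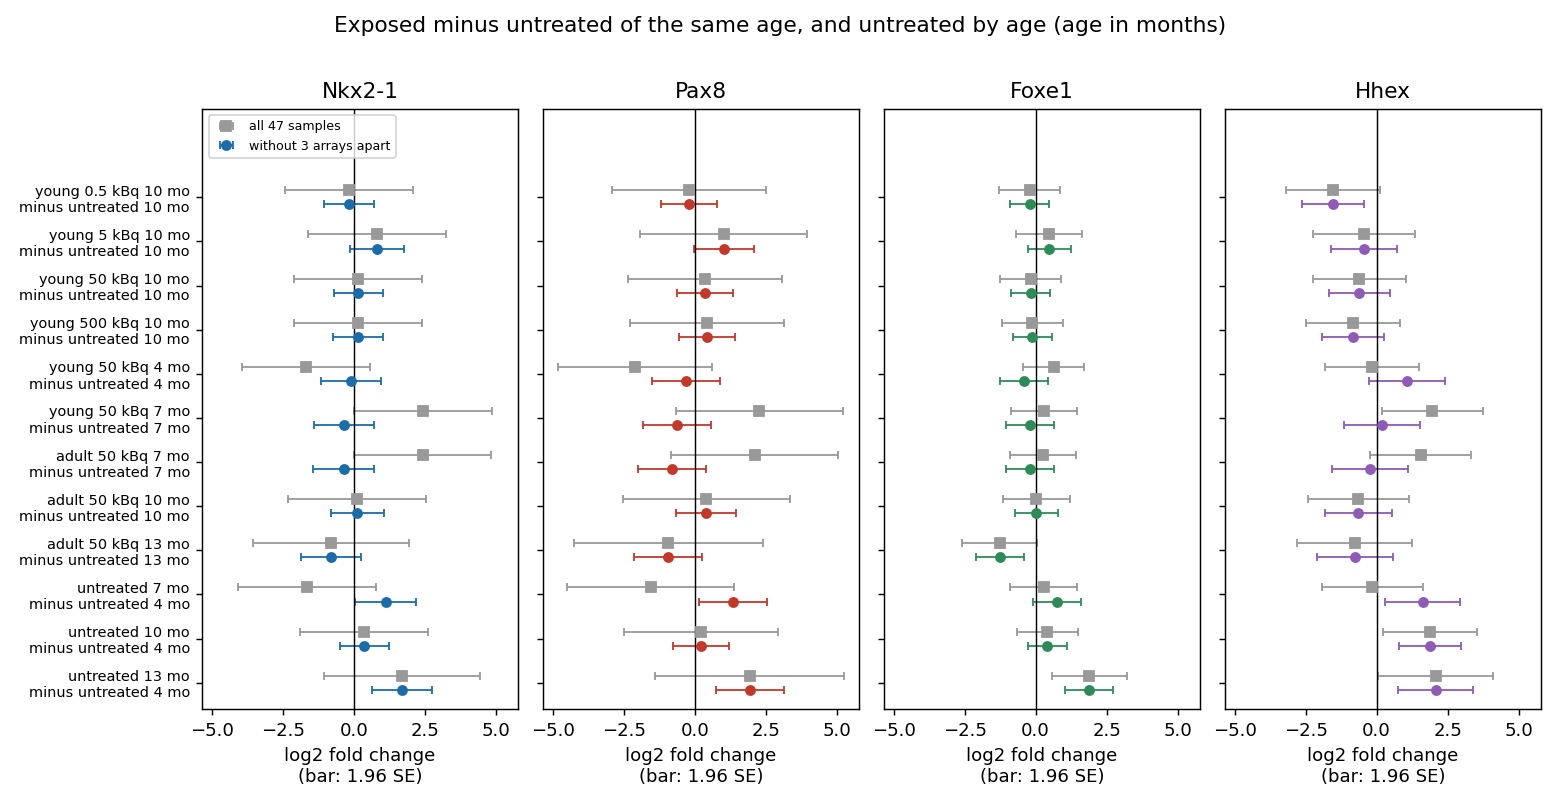
Fitted log2 fold change of each factor (horizontal axis, bars are 95% intervals from the SE) for the 9 exposed groups against untreated rats of the same age and for the 3 older untreated groups against those of 4 months. Squares use all 47 samples and circles leave out the 3 arrays that stand apart. Circles and squares part where the comparison holds one of these arrays, and the intervals of all 4 circles lie above 0 in the last row, untreated 13 against 4 months.

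Whether age at injection changed the 50 kBq response was tested as a difference of differences. At 9 months the young minus adult difference without the 3 arrays was 1.09 ± 0.56 (log2, SE) for Foxe1, 0.96 ± 0.70 for Nkx2-1, 1.28 ± 0.79 for Pax8 and 0.16 ± 0.87 for Hhex, with limma adjusted p from 0.25 to 0.93. At 3 months Nkx2-1 and Pax8 gave -4.10 ± 1.69 and -4.21 ± 2.04 over all samples but 0.25 ± 0.77 and 0.49 ± 0.86 without the 3 arrays. No factor was called at any time in either fit. Over all samples 0 probes (0%) were called at each time, with 7171, 1007 and 2204 at an unadjusted p below 0.05 at 3, 6 and 9 months. Without the 3 arrays 2 (0.00803%), 2 (0.00803%) and 0 (0%) were called.

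The factors also rose and fell together from rat to rat within groups. Deviations from the group mean were correlated over the 44 samples, each tested with 100000 two-sided permutations within groups and adjusted over 62 relations. Nkx2-1 and Pax8 were the closest, with Pearson's r = 0.96 (adjusted permutation p = 2.8e-05) and Spearman's rho = 0.94 (3.0e-05). Foxe1 correlated with Nkx2-1 at r = 0.85 and rho = 0.83 and with Pax8 at r = 0.84 and rho = 0.82, with the same adjusted permutation p as the first pair. These rest on the smallest p that the permutations can give, 1e-05.

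Hhex was looser. It correlated with Nkx2-1 at r = 0.61 (adjusted permutation p = 0.0010) and rho = 0.58 (0.0016), with Foxe1 at r = 0.50 (0.0085) and rho = 0.51 (0.0084), and with Pax8 at r = 0.46 (0.020) and rho = 0.43 (0.026). Without the 2 samples farthest from the median of the factor that comes first in the order Nkx2-1, Pax8, Foxe1 and Hhex, r was 0.94 for Nkx2-1 with Pax8, 0.87 for Nkx2-1 with Foxe1, 0.80 for Pax8 with Foxe1, and 0.54 to 0.59 for the pairs with Hhex, so none of the relations rested on these samples.

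The 2 averaged samples, each scanned on 2 dates, were placed on the first of them. Within the first scan date (23 samples) r was 0.95 for Nkx2-1 with Pax8, 0.93 for Nkx2-1 with Foxe1 and 0.37 to 0.55 for Hhex with the other factors, or 0.98, 0.95 and 0.57 to 0.63 without the averaged samples. Within the second (12 samples) these were 0.99, 0.98 and 0.64 to 0.78. The third held 9 samples of 7 groups, which left 2 degrees of freedom, and there r was 0.92 for Nkx2-1 with Pax8 but 0.01 for Nkx2-1 with Foxe1 and below 0 for Hhex with each factor (-0.52 to -0.99). Neither the relations of Hhex nor that of Foxe1 with Nkx2-1 held within that scan date, and Pax8 with Foxe1 gave 0.41. The 3 arrays that stand apart form a separate cluster and are left out of these values.

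**Figure D4:**
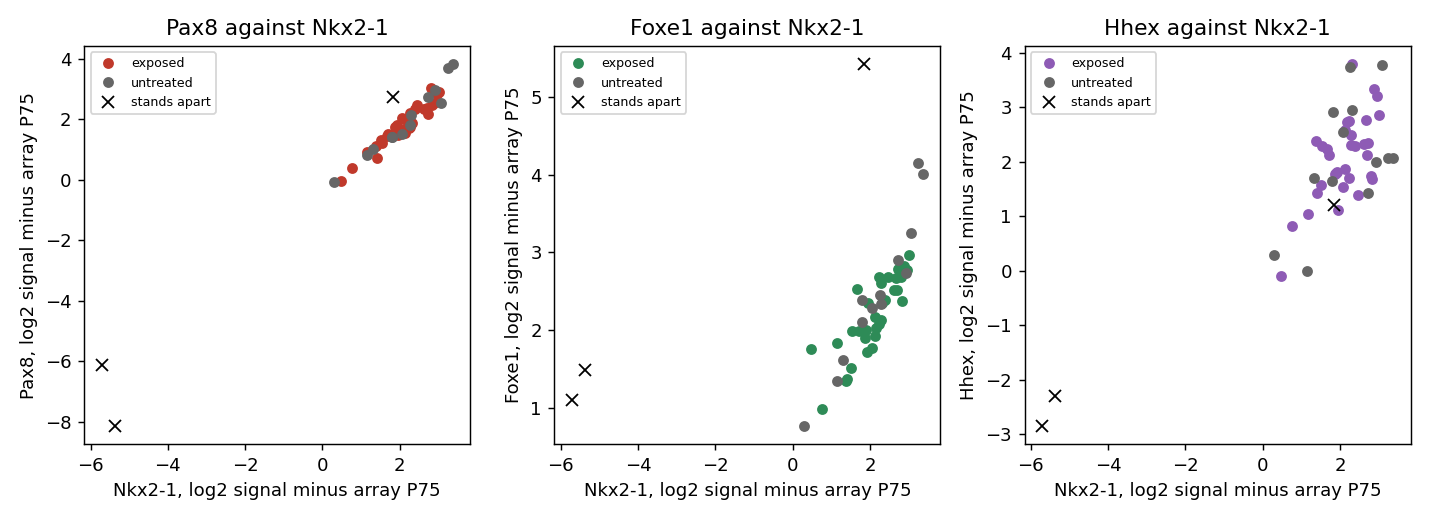
Pax8, Foxe1 and Hhex (vertical axes) against Nkx2-1 (horizontal axis), as log2 signal minus the array's P75 on the 49 arrays, with exposed arrays coloured, untreated arrays grey and the 3 arrays that stand apart as crosses. Pax8 lies close to a line, Foxe1 follows with more scatter and Hhex spreads most. The 2 crosses at the left lie low for Pax8 and Hhex but at ordinary Foxe1 levels.

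Markers of other tissue and the array's brightness were set beside the factors in the same way, over 8 relations adjusted together. The skeletal muscle list fell where Nkx2-1 (r = -0.34, rho = -0.50) and Pax8 (r = -0.43, rho = -0.53) were high, with an adjusted permutation p of 0.012 for each r and 0.011 for each rho. For Foxe1 it gave r = -0.31 (adjusted permutation p = 0.17) and rho = -0.50 (0.011), and for Hhex r = -0.10 (0.55) and rho = -0.29 (0.20). Without the 2 samples farthest from the median of the muscle list r was -0.51, -0.46, -0.42 and -0.60 for Nkx2-1, Pax8, Foxe1 and Hhex. P75 gave r = 0.29, 0.29, 0.01 and 0.31 for Nkx2-1, Pax8, Foxe1 and Hhex, with adjusted permutation p from 0.19 to 0.97, and rho from 0.07 to 0.27, with 0.20 to 0.70. The part of muscle content in the relations among the factors was not tested.

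Most of the 14 genes of thyrocyte function moved with the factors in the same samples. Adjusted permutation p was below 0.05 for 13 of them with Nkx2-1, 14 with Pax8, 11 with Foxe1 and 12 with Hhex. Of these, 12, 13, 11 and 11 had a positive r. The median r over the list was 0.76, 0.75, 0.80 and 0.56. The same count over all genes was not made. In this list the closest partner of Nkx2-1 and of Pax8 was Slc26a7, an anion transporter of the thyrocyte, at r = 0.92 and 0.90. Iyd, the deiodinase that recovers iodide, followed at 0.92 and 0.89, and Tshr, the receptor for thyrotropin, at 0.90 and 0.88. Duox2, an oxidase of the apical membrane, was at 0.88 with both. Foxe1 gave r = 0.88 with Duox2, and values near it with Slc26a7 (0.85) and the cadherin Cdh16 (0.85).

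Other members of the hormone machinery came lower. With Nkx2-1, the deiodinase Dio1 gave r = 0.87, the Duox2 partner Duoxa2 0.83, Cdh16 0.70, the iodide transporter Slc5a5 0.68, Duoxa1 0.68 and Duox1 0.60. Hhex was highest with Duoxa2 (0.69), Slc26a7 (0.66) and Iyd (0.64). The anion transporter Slc26a4, which was well above background on 4 arrays, gave lower values, from 0.22 with Hhex to 0.39 with Pax8.

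Tg alone had a negative r with every factor: -0.39 with Nkx2-1, -0.34 with Pax8, -0.08 with Foxe1 and -0.52 with Hhex, with adjusted permutation p = 0.016, 0.037, 0.60 and 0.0045. Across the same samples Tg also ran against the array's own P75 (r = -0.73). The part of the array level in the Tg values was not tested.

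**Figure D5:**
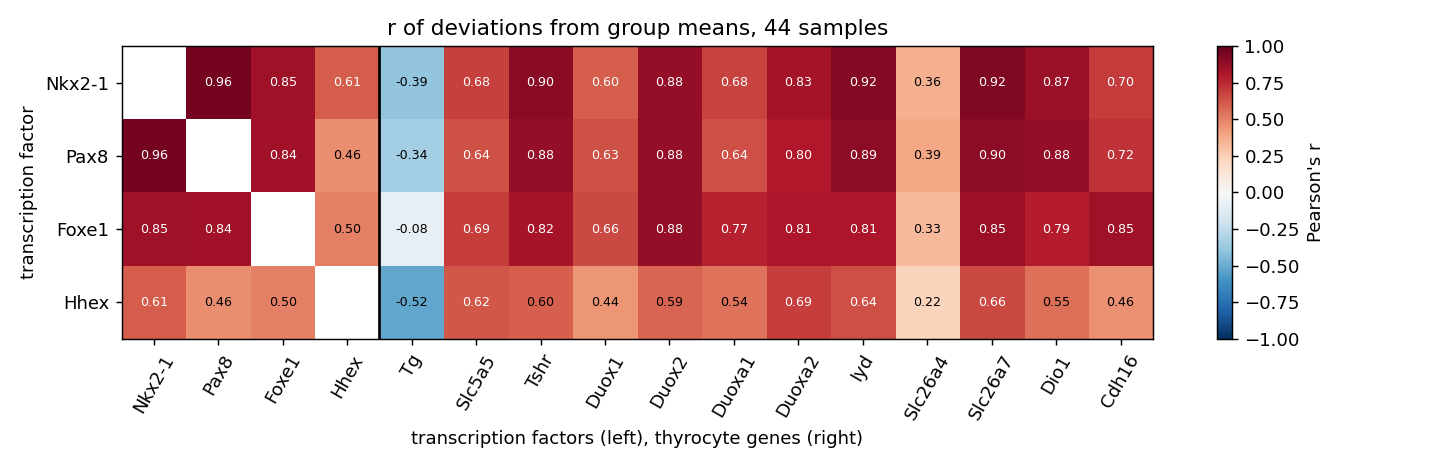
Pearson's r of deviations from group means over 44 samples, for each factor (rows) with the other factors (left of the line) and with the thyrocyte function genes named in the text (right), coloured from blue (-1) to red (1). The Nkx2-1, Pax8 and Foxe1 rows are similar, the Hhex row is paler, and the Tg column is blue throughout.

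The same genes between groups gave few calls. Over all 47 samples none of the 85 genes of 13 lists that were on the array and well above background on at least 3 arrays was called in any comparison. Without the 3 arrays, 1 of 14 thyrocyte function genes was called between 13 and 4 months, where 10.3% of all probes were. It was Slc26a7, higher by 1.98 ± 0.53 (log2, SE, limma adjusted p = 0.0076). All 14 were higher at 13 months, with a median of 0.91 against 0.17 over all probes. Other list genes called in that comparison included Creb1, the cAMP response factor (0.98 ± 0.17, adjusted p = 4.6e-04), and Kdr, an endothelial receptor (0.95 ± 0.26, 0.0098), both higher, and Tbx1, a factor of the pharyngeal endoderm and mesoderm, lower (-2.87 ± 0.70, 0.0044). The same untreated rats of 13 months were the comparison for adult rats 9 months after 50 kBq, where 2.53% of all probes were called. In those adult rats Creb1 was the sole call in the lists, lower by 1.06 ± 0.17 (limma adjusted p = 6.5e-04).

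In that last group all 14 thyrocyte function genes were below the untreated rats of 13 months, with a median of -0.48 against -0.12 over all probes. After 5 kBq 12 of 14 were above untreated rats of 10 months (median 0.69 against -0.02), and after 0.5 kBq 12 of 14 were below (median -0.27 against -0.0031), with no call in either. Nkx2-1, Pax8 and Foxe1 had the same signs in the same samples. At 0.5 kBq their differences without the 3 arrays were small, at -0.16 ± 0.44, -0.20 ± 0.50 and -0.21 ± 0.35 (log2, SE). Within the first scan date Nkx2-1 and Pax8 were higher after 0.5 kBq, by 0.23 each, and within the last, with 1 array of each group, lower by 1.33 and 1.47. The list genes vary with the factors from rat to rat, so the match is no separate result. Each comparison of 10 months also shares its untreated rats with the others.

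As a description of pattern, with no test, each factor was also set against 6383 genes that were well above background on all 49 arrays. Over these arrays the nearest to Nkx2-1 were the claudin Cldn7 (r = 0.98), Tmc4 (0.98) and the claudin Cldn3 (0.98), and the nearest to Pax8 were Nkx2-1 itself (0.98), the epithelial adhesion molecule Epcam (0.97) and Tmc4 (0.97). Foxe1 had other neighbours, the protease Capn1 (0.95), Gpr107 (0.94) and Fkbp2 (0.94). Hhex was nearest to the inhibin subunit Inhbb (0.89), the mannosidase Man1c1 (0.88) and Gprc5a (0.87). All points share their arrays and scaling, and the 2 arrays without thyrocyte transcripts carry much of these values. Over the 44 samples without the 3 arrays the nearest were Ppp1r1b, Abcg3l1 and Hps4 for Nkx2-1 (0.96, 0.96 and 0.95), Nkx2-1, Ppp1r1b and Hps4 for Pax8 (0.96, 0.94 and 0.94), Fkbp2, Sil1 and Fam171a2 for Foxe1 (0.94, 0.94 and 0.93), and Inhbb, Mest and Gna14 for Hhex (0.78, 0.76 and 0.74).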

How the data were processed

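Total RNA from thyroids of single rats was hybridised in 1 colour (Cy3) to Agilent Sureprint G3 Rat GE 8x60K arrays. The authors deposited 1 Feature Extraction file per array, whose processed signal is an intensity from which the scanner software had already taken the local background, without any scaling from one array to the next. The deposited flags, in other units, mark spots well above background and outliers. A deposited table of the authors' own fold changes was not used. Groups follow the sample labels. Control and outlier spots were left out, spots of a probe averaged as log2, and the array's 75th percentile subtracted. Probes were named through RefSeq accessions (17998 of 30367). Where a gene had several probes, the brightest stands for it.

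Of 1176 pairs of arrays, 2 pairs of one group differed by less than the scanner's error of each spot (SD of the difference over its error 0.83 and 1.00, and 1.44 or more for other pairs). These were averaged, so the planned fit of 49 arrays became 47 samples. Probes well above background on at least 3 samples entered a limma 3.58.1 model (R 4.3.3) with 1 mean per group. Permutations used NumPy 2.4.6 in Python 3.11.15. The fit was tried on simulated data with independent noise and no array that stands apart, a simpler setting than these data. The number of arrays is one limit on the precision.

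The members, gene lists and tests were chosen with earlier results of these data known. The text names the 4 factors, the thyrocyte function genes, list genes that were called and the 3 genes nearest each factor in pattern. A few list genes are counted but not reported here by name. Lists covered thyrocyte function, cofactors, thyroid bud development, paralogs and cells of other types (C cell, parathyroid, airway, squamous epithelium, cartilage, skeletal muscle, adipocyte, lymphocyte, endothelium). Arrays were set apart where the thyrocyte list lay more than 3 log2 units below its median or under 60% of spots were well above background, a rule chosen after seeing the data. The planned normexp alternative used median spot signals in place of mean signals, with an offset of 50. Other normalizations, filters, blocks and left-out samples were tried as alternatives.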

Additional observations from a re-analysis of the deposited data

Results flagged for a closer look

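In 36 groups of 4 samples tested for a sample far from the others (each of the factors in each such group), 4 were marked, where chance gives about 1 in 20. Nkx2-1 was at -5.37 on replicate 3 of young 50 kBq at 3 months, against 1.37 for the nearest of the others. Foxe1 was at 5.42 on replicate 2 of that group, the array with the lowest P75, against 1.498. Both arrays had already been set apart by their values, so the chance rate is no measure for them. Foxe1 was also at 2.77 on replicate 4 of young 500 kBq, against 1.897, and at 1.73 on replicate 1 of adult 50 kBq at 9 months, against 2.52.

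For Hhex, all young rats at 6 months after 50 kBq lay above the mean of their untreated group and all adult rats below that of theirs, a young minus adult difference of 2.60 log2 units over all samples. The test of that difference did not call it (limma, adjusted p = 1.00), and without the 3 arrays that stand apart it was 0.83 (adjusted p = 0.82).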

How the results depend on the processing

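Probes called are given for the 4 activities at 9 months, the 5 other 50 kBq groups, the age of the untreated rats, and young against adult, where the main counts were 6, 0, 5 and 0 with no factor called, and the slope had 0 under every alternative. Counts that moved were 3, 7 and 38 (first 3 in that order) with slide as a block, 1 and 67 (other 50 kBq groups and age) with scan date as a block, 6, 11 and 1 (last 3) with quantile normalization, and 167, 13714, 7241 and 4788 with array weights, which did not fully converge. For age alone they were 1 with normexp, 3 without a filter, 20 where a probe had to be above background throughout at least 1 group, and 0 with each pair of groups alone. An adjusted p under 0.05 gave 3685, 1282 and 3 for the last 3, and 49 arrays counted separately 144 and 1306 for other 50 kBq groups and age. For the activities, the 19 arrays alone gave 0 and averaged probes 2. Without the 3 arrays that stand apart, counts chosen after seeing the data were 645, 2583 and 4 for the last 3, and 1 factor (Foxe1, 13 against 4 months) was called for age. With array weights 2 were called there, Foxe1 at 13 months (2.02) and at 7 months (1.09).

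Leaving out each sample in turn gave 0 to 9, 0 to 3786, 0 to 807 and 0 to 12 probes, and 0 to 1 factors for age, 1 without replicate 2 of young 50 kBq at 3 months. The most came without replicate 1 of young 0.5 kBq (9), replicate 1 of young 50 kBq at 3 months (3786, and 3227 without replicate 4) and replicate 2 of that group (807). With replicate block no factor was called and age fell to 0 probes. Numbers shared between groups did not pair samples (median r 0.0067 for equal and 0.016 for other numbers, 8 of 41 samples closest to one of their own number, and 11 of 29 pairs in the groups compared above 0.1).

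Changes of sign were counted only where the main value exceeded its SE. Among 844 recomputed differences of the factors there were 26 such changes, and among 580 with 1 sample left out there were 12. The cause was not tested, except that the values without the 3 arrays differ by those arrays alone. In young 50 kBq at 3 months Foxe1 became -0.29 with slide as a block, -0.26 with array weights, -0.42 without the 3 arrays and -0.37 without replicate 2, and without replicate 3 Nkx2-1 became 0.047 and Pax8 0.32. The Hhex slope became -0.23 with slide as a block and -0.056 with array weights. Between 7 and 4 months Nkx2-1 became 1.54 with weights and 1.12 without the 3 arrays, and Pax8 1.89 and 1.35. In young rats at 6 months Nkx2-1 became -0.58 and -0.33, and Pax8 -0.997 and -0.62. In adult rats at 3 months Nkx2-1 became -0.65 and -0.35, Pax8 -1.21 and -0.78, and Hhex -0.23 without the 3 arrays. For young minus adult at 3 months Nkx2-1 became 0.44 and 0.25, Pax8 0.62 and 0.49, and Hhex 0.30 and 1.29, and at 6 months Nkx2-1 became -0.76 and -0.47. Leaving out replicate 2 of the untreated rats of 7 months alone gave the same values as without the 3 arrays at 6 months, for adult rats at 3 months and for 7 against 4 months, and 0.065 for Hhex, young minus adult at 3 months. The far ends of these ranges with 1 sample left out were, in young 50 kBq at 3 months, 1.003 for Foxe1, -2.35 for Nkx2-1 and -3.31 for Pax8, between 7 and 4 months -3.196 for Nkx2-1 and -3.200 for Pax8, in young rats at 6 months 3.98 and 3.92, in adult rats at 3 months 3.97 and 3.77 with 2.67 for Hhex, and for young minus adult -2.83 for Hhex at 3 months and 3.85 for Nkx2-1 at 6 months.

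The correlation of Pax8 and Hhex fell to 0.38 (adjusted permutation p = 0.081) with scan-date means removed. With the 3 arrays in, Nkx2-1 and Foxe1 gave 0.53, Pax8 and Foxe1 0.58, and Foxe1 and Hhex 0.40, no longer past 0.05. With 1 sample left out r was 0.95 to 0.97 for Nkx2-1 and Pax8, 0.82 to 0.89 for Nkx2-1 and Foxe1, 0.80 to 0.87 for Pax8 and Foxe1, 0.55 to 0.65 for Nkx2-1 and Hhex, 0.39 to 0.55 for Pax8 and Hhex, and 0.45 to 0.59 for Foxe1 and Hhex. On the 46 arrays other than those without thyrocyte transcripts and the one of low P75, all factors were well above background.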
